A study of Arabidopsis thaliana with 6 samples.

Results

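The expansins and expansin-like proteins of Arabidopsis thaliana were followed on 6 Affymetrix ATH1 arrays of light-grown seedlings. Members were the probe sets that the platform annotation pairs with exactly 1 gene whose symbol begins EXPA, EXPB, EXLA or EXLB followed by a number. The rule used gene names and no measured value, but the family was chosen with earlier results of these data known. It found 18 probe sets, 1 for each of 18 genes, among 22746 gene probe sets. They comprised 10 alpha-expansins (EXPA), 4 beta-expansins (EXPB), 3 members of expansin-like family A (EXLA) and 1 of expansin-like family B (EXLB). A further 2 probe sets named several expansin genes each and were left out. The RefSeq gene table (assembly TAIR10.1) listed 38 genes as expansin or expansin-like, and 15 of them had no probe set named here, among them EXPA1, EXPA2, EXPA5, EXPA10 and EXPA11. Those genes were not analysed here.

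Expansins are secreted proteins that loosen the contacts between cellulose and other polysaccharides of the plant cell wall, so that a wall under turgor can extend. They act at acid pH and break no covalent bonds. Alpha- and beta-expansins both have wall-loosening activity, and the beta class includes the group of grass pollen allergens. The expansin-like proteins share the same pair of protein domains, but such activity has not been established for them. In seedlings, individual family members are known for distinct sites of expression, such as EXPA7 and EXPA18 in root hairs.

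The wild type group had 3 arrays, from accession Col-0 seedlings that every label gives as 10 days old. The mutant group had 3 arrays from a triple mutant of VFB genes, which encode F-box proteins akin to the TIR1/AFB auxin receptors, and the labels do not say which alleles it carries. The descriptions give the mutant seedlings as 10 days old, whereas their source names and extract protocols give 5 days, so genotype and age cannot be told apart. The extract protocol of mutant replicate 3 names a No-0 wild type in place of the mutant. That array stayed in the group its title gives, and results are also given without it. No label says that replicates came from separate plantings, so p-values measure only the spread between these samples. Whole seedlings were sampled, so fewer cells of a type and less RNA per cell cannot be told apart.

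Signals are MAS5 intensities, scaled to a common trimmed mean. Changes are differences of log2(signal + 16), mutant minus wild type, which understates the change of dim probe sets. A probe set was tested with limma when its mean lay above the 40th percentile, and it was called at a Benjamini-Hochberg adjusted p below 0.05 over all 13647 tested. All 5 green tissue markers named here were bright enough to test, with summed signals of 68061 to 79346 in wild type and 76510 to 82235 in the mutant, and 0 of the 5 passed the test in limma (2 had an unadjusted p below 0.05). Of the 3 root markers AT4G30170 (log2 change -0.87 ± 0.139 SE) and AT4G26010 (-1.07 ± 0.253) fell and PYK10 (0.20 ± 0.118) did not pass. AT4G26010 was tested through its wild type signal, as its mutant mean of 84.7 lay below the filter bound, a signal of about 109. The summed signal of the root markers was 13566 to 14500 in wild type and 12803 to 17648 in the mutant. PYK10 alone gave 12618.1 to 13438.8 and 12387.1 to 17028.0, so the sum says little about the other root markers. The 3' to 5' signal ratio of the actin control, a measure of RNA integrity, was 2.55, 3.00 and 2.86 in wild type and 3.19, 3.56 and 3.45 in the mutant (exact two-sided permutation p = 0.1, the smallest that 3 against 3 allows). The GAPDH (exact permutation p = 1) and ubiquitin ratios (exact permutation p = 0.3) overlapped between the groups. The part of root content or RNA integrity in the results below was not tested.

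Of the 18 members, 9 passed the filter on dim signals. In this set 4 fell in the mutant, the expansin-like genes EXLA1 and EXLA2, the alpha-expansin EXPA4 and the beta-expansin EXPB3. No member rose, also at an unadjusted p below 0.05. Over all tested probe sets 18.6% were called, 10.4% lower and 8.17% higher. The median change of the 9 was -0.585, against -0.045 for all tested probe sets. Both tested EXLA genes were called lower (median -1.55), 1 of 4 tested EXPA genes (median -0.116), 1 of 2 tested EXPB genes (median -0.295) and 0 of 1 EXLB gene. EXLA2 was tested through its wild type signal, as its mutant mean lay below the filter bound. The EXPA and EXPB medians rest on few genes. Without wild type replicate 2 they were -0.0197 and -0.179, after median centring the EXPA median was -0.0251, and without a filter, with the dim members in, the EXPB median was 0.204. The same 4 genes were lower without mutant replicate 3.

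**Figure D1:**
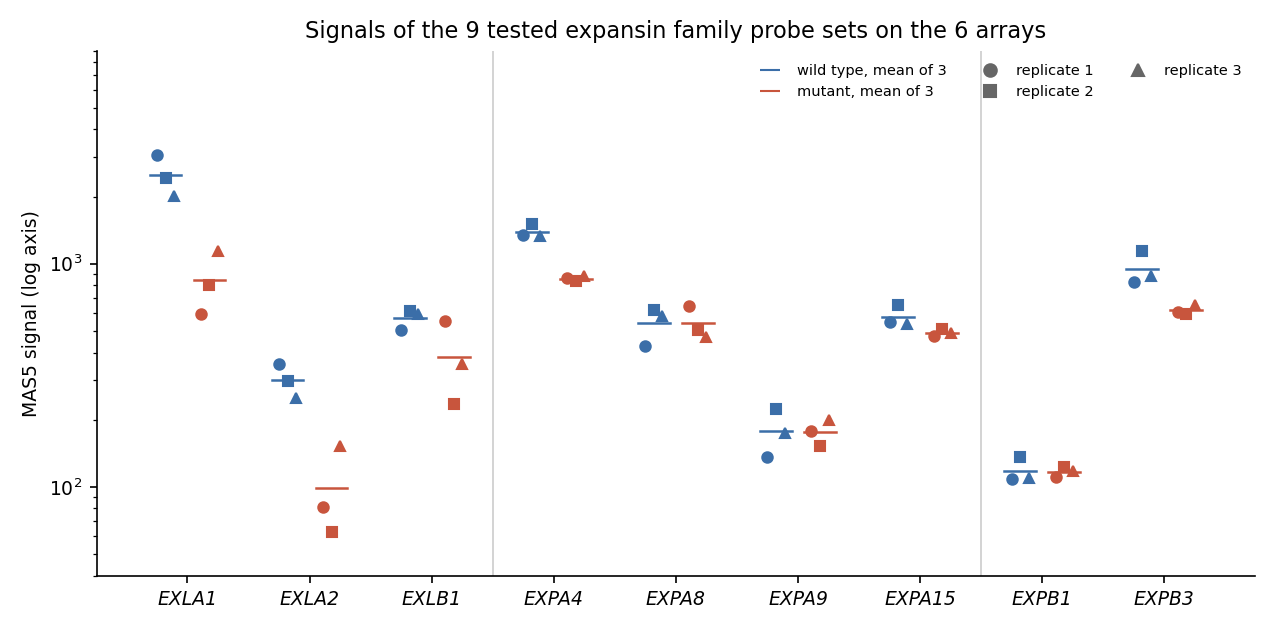
MAS5 signals (log axis) of the 9 tested members, with each array as a point, its replicate as the shape, and the mean of 3 arrays as a bar. Wild type and mutant points of EXLA1, EXLA2, EXPA4, EXPA15 and EXPB3 do not overlap, while those of EXPA8, EXPA9, EXPB1 and EXLB1 do.

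EXLA1 (AT3G45970) and EXLA2 had the largest changes of the 9, and their order depended on the setting: with an offset of 1 they were -1.59 and -1.69. The signal of EXLA1 was 3079.7, 2411.8 and 2002.7 in wild type replicates 1, 2 and 3, and 595.8, 801.6 and 1140.3 in mutant replicates 1, 2 and 3. Every mutant array lay below every wild type array, and the highest mutant array, replicate 3, was still well under the lowest wild type array. The log2 change was -1.57 ± 0.205 (SE; limma, adjusted p = 0.000234), a 2.97-fold fall. By size of fall EXLA1 ranked 29 among the 13647 tested probe sets. Without mutant replicate 3 the change was -1.81.

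EXLA2 (AT4G38400) is known from mutants with an altered response to the fungus Botrytis cinerea. Its signal was 355.9, 298.6 and 250.2 in wild type and 81.2, 63.0 and 151.8 in the mutant. The groups did not overlap, and mutant replicate 3 was again the highest mutant array. EXLA2 fell 2.89-fold, a log2 change of -1.53 ± 0.253 (limma, adjusted p = 0.00126), which ranked 32 among all tested probe sets. Without mutant replicate 3 the change was -1.84. EXLA2 passed the filter through wild type, since its mutant mean of 98.7 lay below the signal of about 109 at the filter bound. Fitted without a filter, EXLA2 was still called (limma, adjusted p = 0.00689). The mutant arrays spread more than the wild type ones for both genes, with SDs on the log2 scale of 0.460 against 0.309 for EXLA1 and 0.561 against 0.241 for EXLA2.

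EXLA3 (AT3G45960), the gene next to EXLA1 among protein-coding genes of the RefSeq table, was too dim to test. Its signal was 72.8, 55.5 and 34.6 in wild type and 3.8, 53.7 and 21.4 in the mutant, and the groups overlapped. The fitted change without a filter was -0.88 ± 0.440 (limma, adjusted p = 0.272 over all 22746 gene probe sets).

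EXLB1 (AT4G17030) did not pass the test with all arrays. Its signal was 505.5, 616.2 and 592.9 in wild type and 555.4, 234.0 and 354.1 in the mutant. Mutant replicate 1 lay inside the wild type range and the other mutant arrays lay below it. The change was -0.64 ± 0.232 (limma, adjusted p = 0.0747, unadjusted p = 0.0165). Which mutant array was included decided this value. Without mutant replicate 1 it was -0.94 (limma, adjusted p = 0.0047), and without mutant replicate 2 it was -0.35 (limma, adjusted p = 0.271).

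Among the alpha-expansins EXPA4 (AT2G39700) was the 1 member called. It gave 1344.3, 1501.1 and 1325.7 in wild type and 862.0, 833.6 and 878.2 in the mutant. The groups lay far apart compared with their spread, which was smaller in the mutant (SD 22.6) than in wild type (SD 96.3). EXPA4 fell 1.61-fold, a log2 change of -0.68 ± 0.106 (limma, adjusted p = 0.000841). Leaving out any 1 array gave changes from -0.72 to -0.63.

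EXPA15 (AT2G03090) was lower in every mutant array but by little. Its signal was 546.3, 655.4 and 536.6 in wild type and 473.4, 507.2 and 490.1 in the mutant. The change of -0.23 ± 0.125 did not pass (limma, adjusted p = 0.233). With EXPA15, 5 of the 9 tested members had groups that did not overlap with the mutant lower, against 21.2% of all tested probe sets.

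EXPA8 (AT2G40610) gave 427.4, 621.0 and 582.0 in wild type and 649.3, 504.0 and 470.1 in the mutant. EXPA9 (AT5G02260) gave 136.3, 223.1 and 175.2 in wild type and 177.3, 152.9 and 199.2 in the mutant. The groups overlapped for both. The 95% interval of the log2 change was -0.36 to 0.35 for EXPA8 and -0.42 to 0.43 for EXPA9, so falls as large as that of EXPA4 lay outside both intervals.

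**Figure D2:**
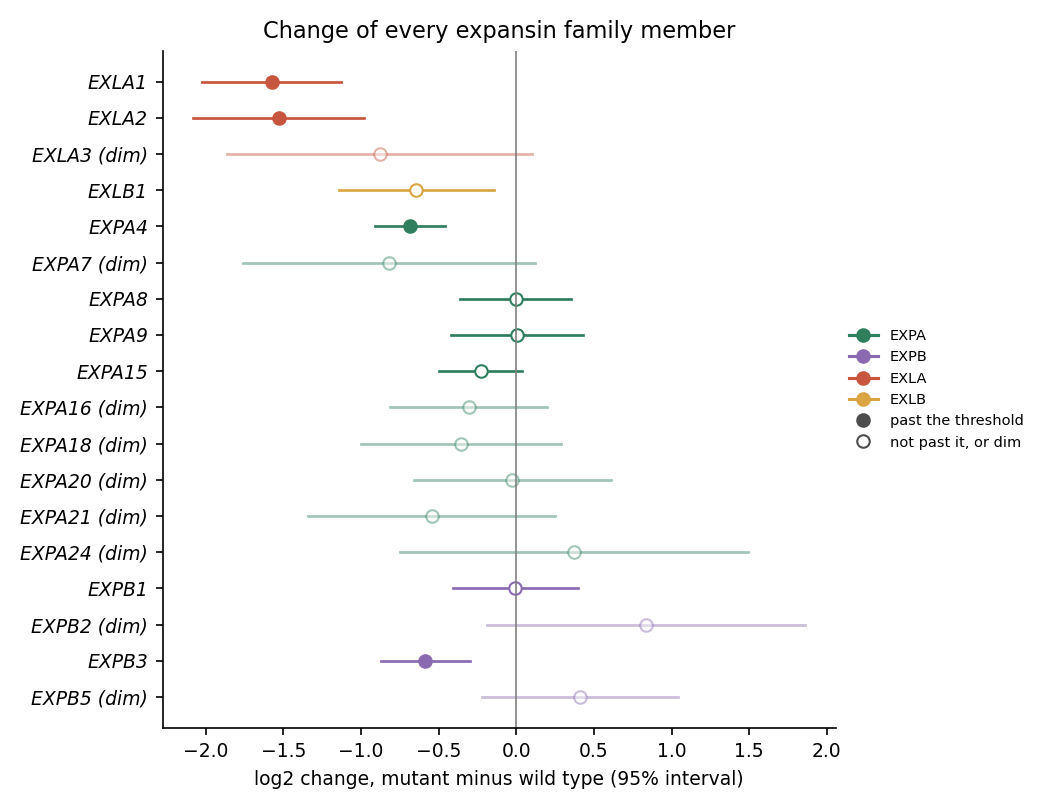
Log2 change, mutant minus wild type, of all 18 members with 95% intervals from limma. Filled points passed the threshold, and pale lines mark dim members, whose values come from the fit without a filter. The 2 tested EXLA genes lie at -1.57 and -1.53, and the intervals of EXPA8, EXPA9 and EXPB1 are centred near 0.

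Of the beta-expansins EXPB3 (AT4G28250) fell. Its signal was 824.5, 1135.5 and 878.1 in wild type and 607.1, 597.5 and 654.4 in the mutant. The groups did not overlap, and the wild type spread (SD 166) rested on the high value of replicate 2, against an SD of 30.5 in the mutant. The fall was 1.5-fold, a log2 change of -0.59 ± 0.133 (limma, adjusted p = 0.00918). Without wild type replicate 2 the change was -0.45 and just missed the threshold (limma, adjusted p = 0.0501).

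EXPB1 (AT2G20750) gave 107.9, 136.7 and 109.8 in wild type and 111.0, 122.2 and 118.1 in the mutant. The mutant values lay inside the wild type range, and the 95% interval of the log2 change was -0.41 to 0.40. EXPB1 was only 0.10 log2 units above the filter. EXPA16, the brightest member below it, was 0.05 units under.

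The other dim members were EXPA7, EXPA16, EXPA18, EXPA20, EXPA21, EXPA24, EXPB2 and EXPB5. With EXLA3 these 9 gave signals from 1.4 to 134.8 on single arrays, and 0 of them passed when limma was fitted without a filter, a fit that called 9.32% of all gene probe sets. Their lowest unadjusted p in limma was 0.0727. The root hair genes EXPA7 and EXPA18 were the only root hair markers named here, and both were dim. EXPA7 gave 62.5, 37.7 and 75.0 in wild type and 49.5, 4.9 and 35.0 in the mutant. EXPA18 gave 111.2, 114.7 and 120.0 in wild type and 48.6, 107.0 and 119.4 in the mutant. In both the lowest value came from a single mutant array, replicate 2 for EXPA7 and replicate 1 for EXPA18. Another mutant array, replicate 3 for EXPA7 and replicate 2 for EXPA18, lay slightly below the wild type range.

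EXPB5 was the dim member whose groups did not overlap, with 38.7, 32.4 and 24.5 in wild type and 39.6, 64.5 and 40.5 in the mutant. It was higher in the mutant, a pattern shared by 11.8% of all gene probe sets, and its change of 0.41 ± 0.284 did not pass (limma without a filter, adjusted p = 0.443). EXPB2 gave 32.1, 64.9 and 3.4 in wild type and 46.2, 73.7 and 61.3 in the mutant. Wild type replicates 1 and 3 lay below every mutant array, replicate 3 by more, and replicate 2 lay inside the mutant range. EXPA20 gave 59.7, 95.5 and 111.5 in wild type and 72.9, 68.8 and 119.1 in the mutant, and EXPA16 gave 101.5, 134.8 and 119.3 against 82.0, 117.4 and 81.0. EXPA21 and EXPA24 stayed at or below 36.9 on all 6 arrays.

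**Figure D3:**
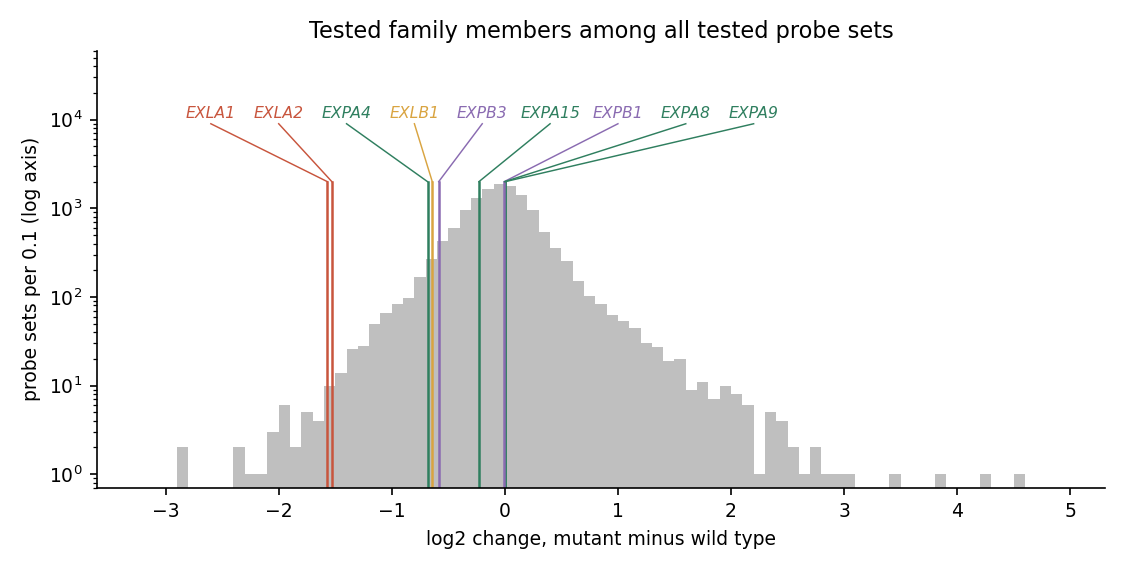
Histogram of the log2 changes of all 13647 tested probe sets (log axis for the number per 0.1 unit), with the 9 tested members as coloured lines. EXLA1 and EXLA2 lie in the far lower tail, EXPA4, EXLB1 and EXPB3 lie on the lower flank between -0.68 and -0.59, and EXPA8, EXPA9 and EXPB1 lie at the centre.

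The classes were set side by side within each array, as the mean over tested members of log2 signal minus the wild type mean. The EXLA pair stood at 0.28, -0.01 and -0.27 in wild type and at -1.86, -1.80 and -1.0 in the mutant. The 4 EXPA genes stood at -0.19, 0.20 and -0.01 in wild type and at -0.17, -0.29 and -0.22 in the mutant. The EXPB pair stood at -0.14, 0.23 and -0.09 in wild type and at -0.34, -0.29 and -0.25 in the mutant. Wild type and mutant arrays thus overlapped for the EXPA mean and did not for the EXLA and EXPB means. Both tested EXLA genes had groups that did not overlap, so the separation of their mean is not a separate result. The separation of the EXPB mean rested on EXPB3, as the mutant values of EXPB1 lay inside its wild type range. Wild type replicate 2 was the highest wild type array for 7 of the 9 tested members, a place it held for 30.1% of all tested probe sets.

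Changes of the 4 lower genes were compared by pair within arrays, a comparison chosen after the values were seen. The fall of EXLA1 exceeded that of EXPA4 by 0.89 ± 0.318 (SE) on the log2 scale and that of EXPB3 by 0.99 ± 0.346. The fall of EXLA2 exceeded that of EXPA4 by 0.85 ± 0.337 and that of EXPB3 by 0.95 ± 0.356. Each of these had no overlap between the groups, with an exact two-sided permutation p of 0.1, the smallest that 3 against 3 allows (0.15 adjusted over 6 pairs), so none could pass. EXLA1 and EXLA2 differed by 0.04 ± 0.224 (exact permutation p = 1), and EXPA4 and EXPB3 by 0.10 ± 0.0898 (exact permutation p = 0.4).

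Within the groups the order of the arrays was as follows. EXLA1 and EXLA2 were highest in wild type replicate 1 and lowest of that group in replicate 3, and mutant replicate 3 was their highest mutant array. EXPA4 and EXPB3 were highest in wild type replicate 2, and their mutant arrays lay close together. After each profile was centred on its mean, the root mean square difference over the 6 arrays was 0.225 log2 units between EXLA1 and EXLA2 and 0.103 between EXPA4 and EXPB3. It was 0.541 to 0.602 between an EXLA gene and EXPA4 or EXPB3, values that include the different sizes of their falls.

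**Figure D4:**
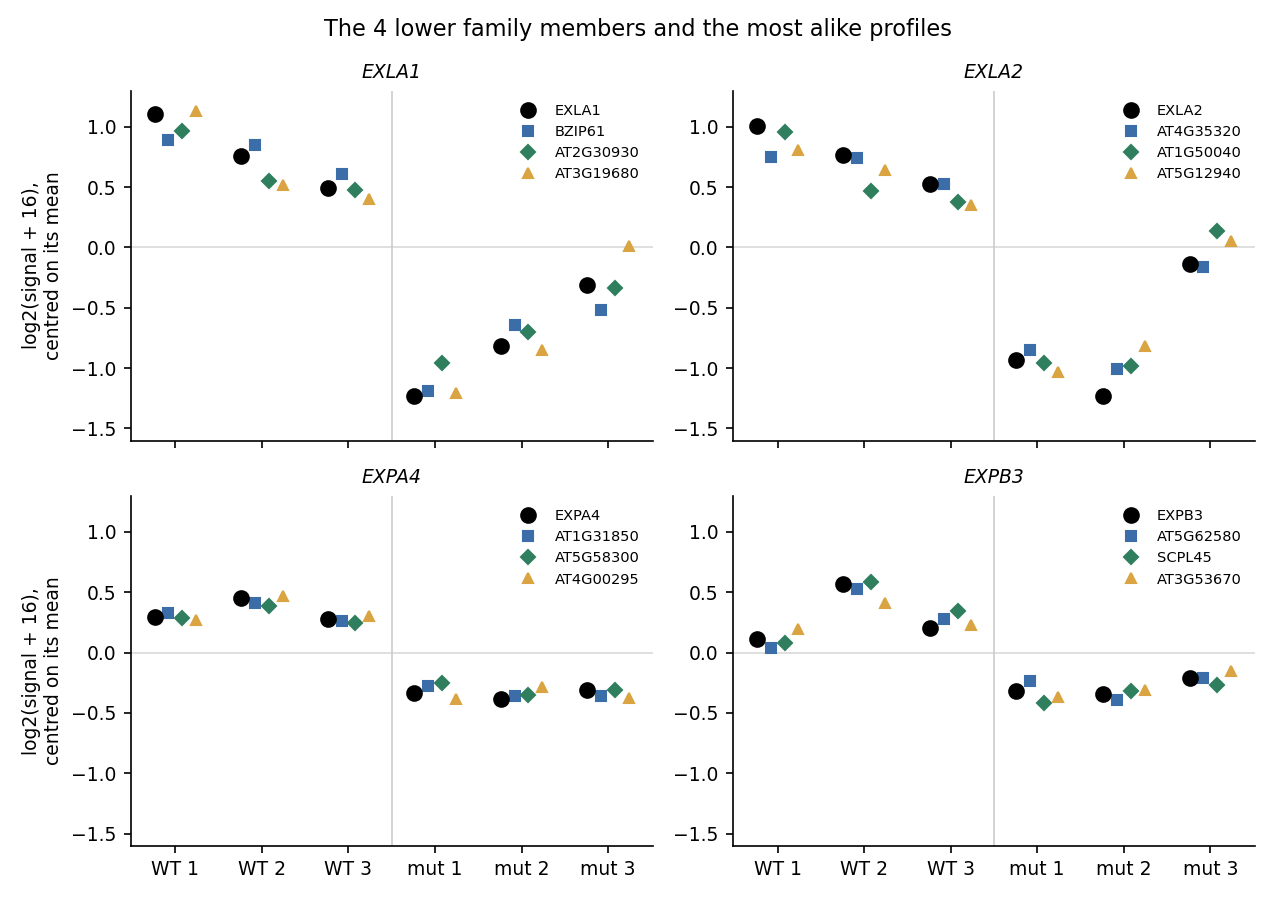
Centred log2(signal + 16) of the 4 lower members (black circles) and of the 3 other tested single-gene probe sets most like each (coloured), on the 6 arrays. The mutant points of EXLA1 and EXLA2 lie far apart, with replicate 3 highest, whereas those of EXPA4 and EXPB3 lie close together.

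By the same measure the single-gene probe sets outside the family most like EXLA1 were BZIP61 (0.155), which encodes a basic leucine zipper transcription factor, AT2G30930 (0.159) and AT3G19680 (0.170). BZIP61 gave 1207.1, 1176.6 and 990.9 in wild type and 273.9, 408.4 and 445.4 in the mutant. Those most like EXLA2 were AT4G35320 (0.141), AT1G50040 (0.203) and AT5G12940 (0.224). AT4G35320 gave 341.6, 338.6 and 289.1 in wild type and 102.0, 89.3 and 174.0 in the mutant. BZIP61 and AT4G35320 had wild type and mutant arrays that did not overlap, with the mutant lower. Their choice by likeness to EXLA1 and EXLA2 favoured this pattern, so it is not a separate result.

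EXPA4 had closer companions, AT1G31850 (0.0405), AT5G58300 (0.0488) and AT4G00295 (0.0559). AT1G31850 gave 932.4, 991.0 and 893.6 in wild type and 609.3, 575.1 and 572.6 in the mutant. EXPB3 was followed most closely by AT5G62580 (0.0607), SCPL45 (0.0750), a serine carboxypeptidase-like gene, and AT3G53670 (0.0817). The distances were smaller for EXPA4 and EXPB3, whose profiles also moved less, so they are not comparable with those of the EXLA genes.

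Other genes of wall extension were counted in the same test, in which 10.4% of all tested probe sets were called lower and 8.17% higher. The lists below hold 1 to 4 tested genes each, too few to set their counts apart from those shares. EXO (EXORDIUM), a gene that brassinosteroids induce and that promotes leaf growth, fell by 1.58 on the log2 scale (SE 0.290; limma, adjusted p = 0.00249). It gave 7531.4, 4648.7 and 3794.7 in wild type and 1024.5, 1810.4 and 2624.0 in the mutant, the same order of arrays as EXLA1. Of 4 tested xyloglucan endotransglucosylase/hydrolase (XTH) genes, whose products cut and rejoin xyloglucan chains, 1 fell and 0 rose, with a median change of -0.181. The fall was in XTH16 (-0.69 ± 0.121), and the other 3 ranged from -0.46 to 0.27. Of 4 tested GH9 endoglucanases, enzymes that cleave cellulose-type chains, 2 fell and 0 rose, with a median of -0.454. GH9B13 changed by -1.74 ± 0.177 and GH9B8 by -0.58 ± 0.161. The single pectin methylesterase named here, PME61, fell by 0.83 on the log2 scale (SE 0.226; limma, adjusted p = 0.0229). Plasma membrane proton pumps, SAUR genes, cellulose synthases, arabinogalactan proteins and extensins had no probe set named here by their lists and were not analysed here.

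**Figure D5:**
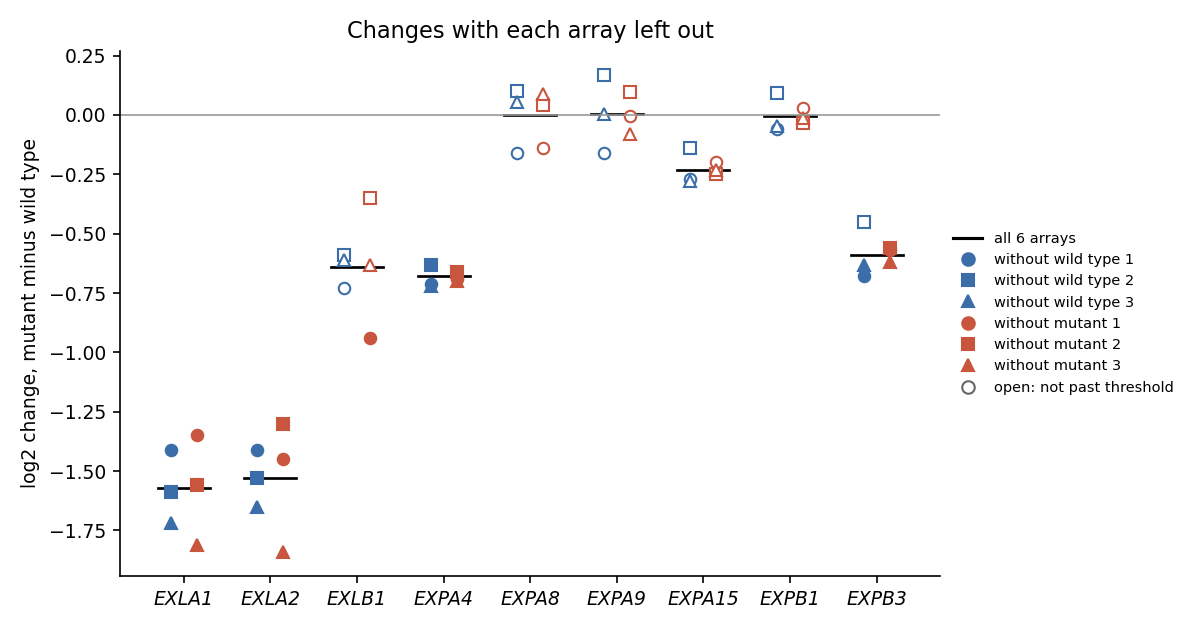
Log2 change of the 9 tested members with all 6 arrays (black bars) and with each array left out in turn (points; open where the adjusted p was not below 0.05). EXLA1, EXLA2 and EXPA4 stay past the threshold in all 6 cases, EXPB3 misses it without wild type replicate 2, and EXLB1 passes it without mutant replicate 1.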

How the data were processed

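The authors deposited probe set intensities on a linear scale, made with MAS5 per the submitters' processing notes. The MAS5 version and settings were not given in these sources. Each array's trimmed mean, without 2% of values at each end, was 500, and array medians ran from 184.6 to 204.2. Control probe sets (64) were left out of the tests. From the deposited intensities log2(value + 16) was computed and limma 3.58.1 (lmFit and trended eBayes, under R 4.3.3) compared mutant with wild type. Exact permutation tests used scipy 1.17.1, and figures matplotlib 3.10.9. The fit was checked on simulated data with known changes, drawn with independent normal noise and without array effects. That check covers the working of the fit and not the calls in these data. All 18 members matched a RefSeq gene by Entrez number. Other genes named with values are called members of the lists, up to 4 a list, and the 3 profiles most like each called member. The root marker PYK10, which was not called, is named as well to complete its list. The members and lists were chosen with earlier results of these data known. A list of polygalacturonases and pectate lyases, taken by symbol, caught 4 genes of other kinds (PGL34, PGRL1B, PGM and PGY1; 0 lower and 1 higher) and was not used, and the seed reserve list had no named member. Promoter motifs and protein identities were not analysed here. Precision is limited by the 3 arrays per group. Alternatives were offsets of 1 and 64, median centring, quantile normalization, a 60th percentile filter or none, eBayes without trend or robust, a replicate block, and leaving out each array.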

Additional observations from a re-analysis of the deposited data

How the results depend on the processing

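Across 15 alternatives the calls of EXLA1 and EXPA4 held in all 15 (highest adjusted p in limma 0.00208 and 0.00736) and that of EXLA2 in the 14 that tested it (0.00898); EXPB3 lost its call without wild type replicate 2, and EXLB1 gained one without mutant replicate 1. The 60th percentile filter left EXLA2 untested, so 1 EXLA gene was called lower. Without a filter the median change was -0.332 over all 18 members, -0.268 for EXPA and 0.204 for EXPB, where dim members enter; with the 60th percentile filter it was -0.585 for EXPB, from EXPB3 alone. With 1 array left out the count of lower members ran from 3 to 5, with 0 to 1 for EXPB and 0 to 1 for EXLB. The median of all tested members then ran from -0.676 to -0.349, the latter without mutant replicate 2. Without wild type replicate 2, 878 of all tested probe sets were lower, against 1426 with all arrays. Directions near 0 depended on scaling: EXPA8 was 0.0355 after quantile normalization and 0.0884 after median centring, against -0.00209 as deposited, and EXPB1 0.0965 and 0.0851, against -0.00537. With 1 array left out EXPA8 ran from -0.16 to 0.10, EXPA9 from -0.16 to 0.17 and EXPB1 from -0.0593 to 0.0915. The cause of these shifts was not tested. Of all probe sets called, 43.9% were higher in the mutant as deposited, but 61.8% after median centring. The 3' to 5' differences, mutant minus wild type on the log2 scale, became 0.506 in place of 0.283 for actin, 0.318 in place of 0.174 for ubiquitin and 0.0937 in place of -0.00341 for GAPDH with the older control probe sets. Deviations from group means correlated at -0.196, 0.0157 and -0.167 between arrays of the same replicate number and at -0.0377 to 0.194 between others. With 3 arrays per group and no test, these values cannot settle whether the arrays were paired. With a replicate block the same 4 members were lower (limma, EXLA1 adjusted p = 0.00115, EXPB3 0.021).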
